A study of Mus musculus with 20 samples.

Results

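The genes described here are 10 components of the endoplasmic reticulum (ER) folding machinery and of the unfolded protein response (UPR): *Hspa5*, *Hsp90b1*, *Calr*, *Hyou1*, *Pdia4*, *Dnajb9*, *Sdf2l1*, *Creld2*, *Manf* and *Xbp1*. They were chosen by symbol among the 50559 genes of a read count table, and all 10 passed the filter on low counts in every comparison. The table holds RNA-seq counts from 20 liver samples of *Cideb* fl/fl mice (C57BL/6), with 5 samples, called livers here, in each of 4 groups. WT mice were injected with AAV-TBG-GFP and KO mice with AAV-TBG-Cre, whose TBG promoter is active in hepatocytes, so other liver cells kept an intact *Cideb*. All mice carried the floxed allele, in which loxP sites flank an exon of *Cideb*, a gene for a lipid droplet protein, and all received an AAV. Mice were fed WD, a solid food rich in fat, sugar and cholesterol together with sugar water, or CDA-HFD, a high-fat food that lacks choline and is low in methionine. The labels give 3 months of feeding for each of the 4 groups and no age, whereas the study's text gives a longer period for WD than for CDA-HFD, so diet and feeding time cannot be told apart. The comparison of KO with WT livers asks whether loss of *Cideb* in hepatocytes goes with a change of these genes on either diet.

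Proteins bound for secretion, the plasma membrane or the ER itself fold inside the ER with the help of chaperones, disulfide isomerases and calcium-binding lectins. When unfolded proteins accumulate, the sensors IRE1, PERK and ATF6 start the UPR. ATF6 and the spliced form of XBP1 then raise transcription of the chaperone genes, and PERK slows translation and raises ATF4. Hepatocytes secrete most plasma proteins and assemble lipoproteins in the ER, so their need for this machinery is high.

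The promoters are shown first. The genes were chosen as ER folding and UPR genes, and the elements searched are known as sites of the factors that raise such genes. Their presence here is therefore a description and not an independent test. Of the 10 genes, 8 have a promoter entry in the RefSeq table used here (GRCm38.p6), which runs from 250 bases before the RefSeq start of transcription to 50 after it. *Hyou1* and *Manf* have none there. The ER stress response element (ERSE), known as a site for NF-Y together with ATF6 or XBP1, was searched as CCAAT, any 9 bases and CCACG on both strands. It was found in 4 of the 8 promoters, those of *Hspa5*, *Hsp90b1*, *Calr* and *Creld2*, and *Hsp90b1* had 2 matches. Over the whole table, 39 of 32851 promoters (0.119%), belonging to 37 of 27025 genes (0.137%), held such a match. The match of *Hspa5* lay at -65 to -47 from the start on the strand of the gene. Those of *Hsp90b1* lay at -212 to -194 on the same strand and at -107 to -89 on the opposite strand. *Calr* had its match at -162 to -144 and *Creld2* at -126 to -108, both on the opposite strand, where the element reads CGTGG, any 9 bases and ATTGG. The shorter core of the UPR element, TGACGTG, which overlaps no ERSE letters here, was found in *Hspa5* alone of the 8, at -157 to -151, and in 2.01% of all promoters. A variant element, ERSE-II (ATTGG, any base and CCACG), was in none of the 8 and in 0.0365% of all promoters. The promoters of *Pdia4*, *Dnajb9*, *Sdf2l1* and *Xbp1* held neither form of ERSE in this window. A match is a description of letters, and binding was not measured.

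The 250 bases before the start of the 4 genes with an ERSE are printed below from 5′ to 3′ on the strand of the gene, with the fixed letters of the ERSE and, in *Hspa5*, those of the UPR element core in capitals. They lie at chr2:34771840-34772089 on the plus strand for *Hspa5*, at chr10:86705445-86705694 on the minus strand for *Hsp90b1*, at chr8:84846932-84847181 on the minus strand for *Calr* and at chr15:88819396-88819645 on the plus strand for *Creld2*.
Hspa5: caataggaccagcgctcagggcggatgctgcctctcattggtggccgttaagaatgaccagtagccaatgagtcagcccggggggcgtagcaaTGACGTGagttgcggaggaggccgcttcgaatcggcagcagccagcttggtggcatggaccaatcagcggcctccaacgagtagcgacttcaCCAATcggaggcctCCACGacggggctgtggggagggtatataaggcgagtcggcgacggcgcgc
Hsp90b1: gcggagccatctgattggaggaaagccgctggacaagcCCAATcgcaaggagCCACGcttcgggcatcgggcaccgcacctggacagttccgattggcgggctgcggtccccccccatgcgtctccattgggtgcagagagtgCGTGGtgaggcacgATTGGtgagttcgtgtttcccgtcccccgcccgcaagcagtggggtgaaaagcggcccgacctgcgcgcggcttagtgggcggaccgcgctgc
Calr: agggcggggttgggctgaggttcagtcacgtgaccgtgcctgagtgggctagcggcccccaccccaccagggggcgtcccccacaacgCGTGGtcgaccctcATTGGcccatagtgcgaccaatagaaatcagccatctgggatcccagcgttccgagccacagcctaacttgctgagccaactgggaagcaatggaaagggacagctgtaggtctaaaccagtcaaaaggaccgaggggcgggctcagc
Creld2: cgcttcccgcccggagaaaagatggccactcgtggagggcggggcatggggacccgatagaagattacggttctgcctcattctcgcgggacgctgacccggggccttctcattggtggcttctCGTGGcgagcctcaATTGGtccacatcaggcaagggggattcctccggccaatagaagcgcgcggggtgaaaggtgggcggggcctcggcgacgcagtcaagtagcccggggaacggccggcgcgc

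Between 11697049 and 16827147 reads per liver were assigned to genes, which gave every one of the 10 genes at least 9.80 normalized CPM (read counts scaled to a common total) in every liver. CPM were scaled by edgeR's TMM method over the 20 livers, and fold changes come from edgeR's quasi-likelihood test within each comparison, with p-values adjusted over all genes tested by the Benjamini-Hochberg method at a threshold of 0.05. The labels number the livers of a group without saying that each came from another mouse, so p-values measure the spread between these samples. *Cideb* had 35 to 100 reads in WT livers and 0 to 6 in KO livers over both diets, lower in every KO liver than in any WT liver. All 10 hepatocyte markers examined, such as *Alb* and *Apoa1*, were read in every group, whereas *Igkc*, *Ighm* and *Iglc1* of B cells and *Trac* and *Trbc2* of T cells were listed at 0 throughout. On CDA-HFD, KO liver 5 stood apart from the other KO livers: its summed stellate cell and fibroblast markers reached 4367 CPM, against 1384 to 1579 in KO livers 1 to 4 and 2523 to 4198 in WT livers, and its summed hepatocyte markers were at 37500.5 CPM, against 73582 to 106410. The fold changes between KO and WT livers on CDA-HFD are therefore given with all livers and without this one.

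Per kilobase of exon, the levels of the 10 genes spanned about an order of magnitude. In WT livers on WD, *Calr*, the calcium-binding lectin calreticulin, led with 180.5 ± 24.7 CPM per kilobase (SD, n = 5), followed by *Hsp90b1*, the ER form of HSP90, with 159.9 ± 18.6. *Hspa5*, which encodes BiP, the main HSP70 chaperone of the ER, had 89.9 ± 16.2 CPM per kilobase and *Pdia4*, a disulfide isomerase, 84.8 ± 5.33. *Xbp1* and *Hyou1* were intermediate at 46.5 ± 5.66 and 31.3 ± 4.21 CPM per kilobase. The other 4 were lowest, at 18.9 ± 4.38 for *Dnajb9*, 15.8 ± 4.89 for *Creld2*, 12.3 ± 2.13 for *Sdf2l1* and 12.2 ± 2.01 for *Manf*, 14.8 times below *Calr* for the last. The livers of neighbors in this order overlapped for *Calr* and *Hsp90b1*, for *Hspa5* and *Pdia4*, and for each neighbor among the lowest 4, and did not overlap elsewhere. *Calr*, *Hsp90b1*, *Hspa5*, *Pdia4*, *Xbp1* and *Hyou1* held places 1 to 6 in all 4 groups.

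**Figure D1:**
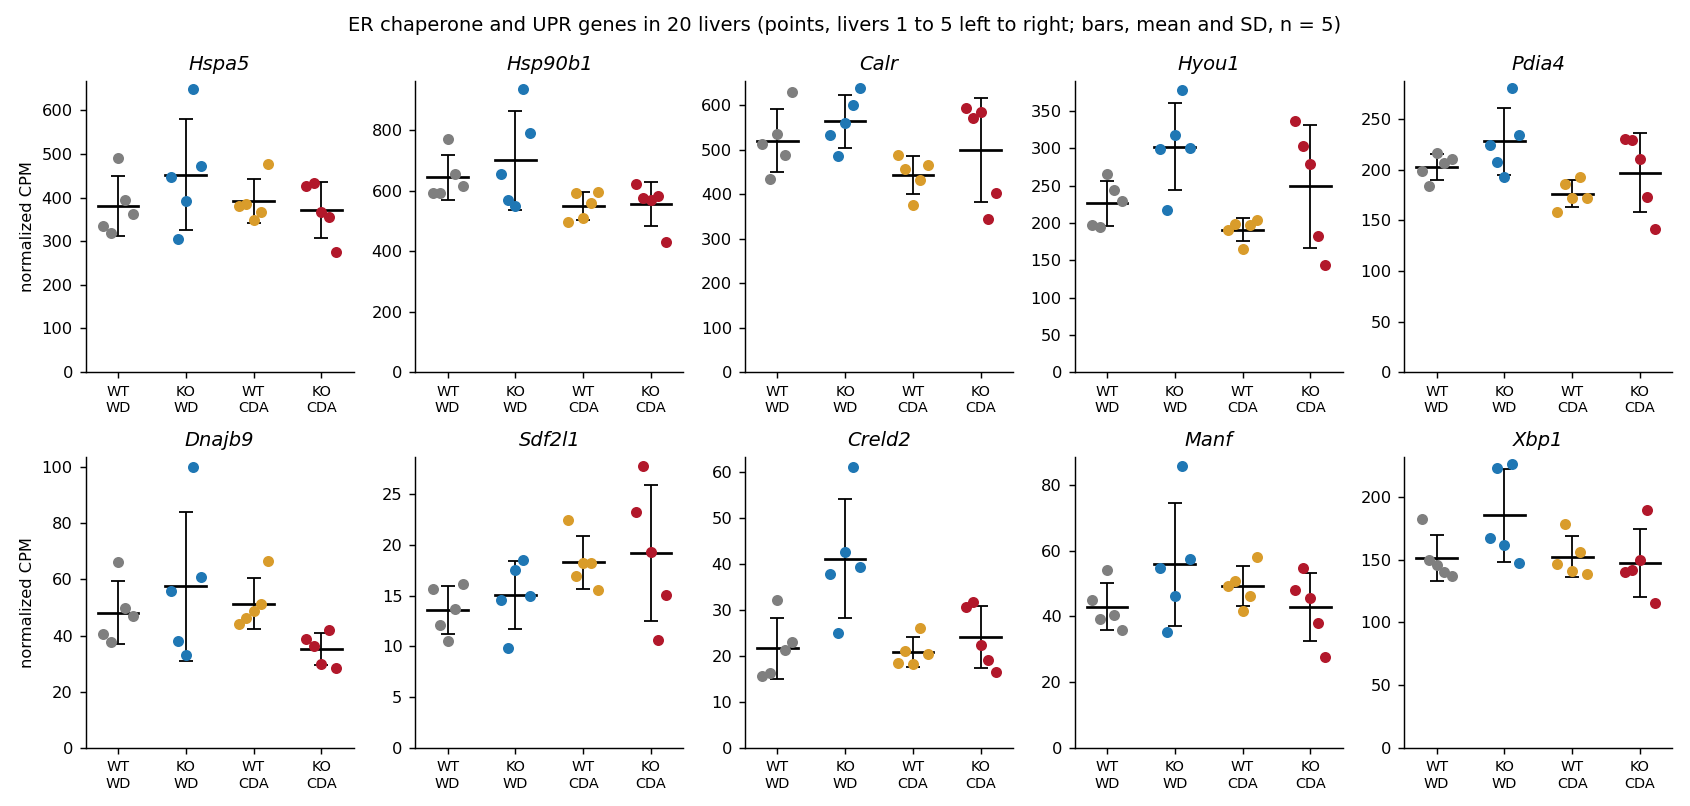
Normalized CPM of the 10 genes (vertical axes, each from 0) in the 5 livers of each group (points, livers 1 to 5 from left to right), with group mean and SD (bars). *Creld2* in KO livers on WD (25.0 to 61.1 CPM) sat mostly above WT (15.5 to 32.2), and *Dnajb9* in KO livers on CDA-HFD (28.6 to 42.1) sat below every WT liver (44.0 to 66.8).

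On WD, none of the 10 genes passed the test between KO and WT livers (edgeR, 0 of 10), and the fitted log2 fold changes of all 10 were above 0, with a median of 0.26 and a range from 0.12 for *Calr* to 0.93 for *Creld2*. Over all genes tested on WD, 12 of 15848 passed (0.0757%), the median log2 fold change was 0.01, and 8360 were above 0. At an unadjusted p under 0.05 there were 2 of the 10, *Creld2* and *Hyou1*, beside 1702 of all genes, and DESeq2 called *Creld2* alone. KO liver 4 was the highest KO liver for 9 of the 10 genes, *Calr* being the exception, and without it the log2 fold changes of *Hsp90b1* (-0.02) and *Dnajb9* (-0.05) turned below 0. For none of the 10 did the 5 KO livers lie clear of the 5 WT livers, as they did for 2.22% of all genes. The summed macrophage markers ran from 488 to 1614 CPM in WT and from 411 to 790 CPM in KO livers on WD. Of these 16 markers 0 passed by edgeR, 4 had an unadjusted p under 0.05, and 0 were above 0 (median log2 fold change -0.59). Of 10 hepatocyte markers 9 were above 0, with a median of 0.20, and 0 passed. The part of these cell types was not tested.

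*Creld2*, whose product is induced by ER stress and takes part in disulfide exchange, had the widest gap on WD. WT livers 1 to 5 had 15.5, 16.3, 32.2, 21.2 and 23.0 CPM, and KO livers 1 to 5 had 37.9, 25.0, 42.6, 61.1 and 39.4 CPM. Of the KO livers, 4 of 5 were above every WT liver and KO liver 2 was within the WT range. The fold change was 1.91 (log2 0.93, SE 0.24, 95% confidence interval 0.40 to 1.46), with an unadjusted p of 0.00227 and an adjusted p of 0.239 by edgeR. By DESeq2 the adjusted p was 0.0259, and over the 17 alternatives it ran from that value to 0.480 at log2 fold changes of 0.73 to 1.11.

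*Hyou1*, the exchange factor that renews the nucleotide on BiP, showed the same arrangement of livers with a smaller difference. Its CPM were 197, 195, 266, 244 and 229.9 in WT livers and 299, 217, 318, 379 and 300.2 in KO livers 1 to 5. Again KO liver 2 was the one inside the WT range and the other 4 were above it (log2 fold change 0.42, SE 0.14, interval 0.11 to 0.73, edgeR adjusted p = 0.324). *Hspa5* had 336, 319, 492, 393 and 361 CPM in WT livers and 446, 305, 392, 649 and 472 CPM in KO livers. KO liver 2 was below every WT liver for *Hspa5* and KO liver 4 above every one, and the interval of its log2 difference ran from -0.15 to 0.66. *Manf*, a small protein of the ER lumen that binds BiP and can be secreted, ran from 36.0 to 54.2 CPM in WT livers and from 35.3 to 85.7 CPM in KO livers (log2 fold change 0.38, interval -0.06 to 0.83). *Xbp1*, the transcription factor gene whose mRNA is spliced by IRE1, ran from 137 to 183 CPM in WT and from 147 to 227 CPM in KO livers (0.30, interval -0.00 to 0.60), and counts per gene do not separate its spliced from its unspliced form. The remaining 5, *Dnajb9*, *Pdia4*, *Sdf2l1*, *Hsp90b1* and *Calr*, had log2 fold changes from 0.12 to 0.26, and the interval of each reached below 0.

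On CDA-HFD, 1 of the 10 genes passed the test between KO and WT livers, in the downward direction. *Dnajb9*, which encodes ERdj4, a J-domain partner of BiP in ER-associated degradation, fell to 0.68 of its WT level. This 1 of 10 stands beside 2664 of 17204 genes that passed on CDA-HFD (15.5%), and 9.57% of all genes had KO livers clear of WT livers. The median log2 fold change of the 10 was 0.04, that of all genes was 0.00, and 6 of the 10 were above 0. Cell type markers differed in the same comparison: of the macrophage markers tested 7 of 16 passed as lower and none as higher, of the stellate cell and fibroblast markers 2 of 11, and of the hepatocyte markers 2 of 10 passed as higher, and their part in the results was not tested. Without KO liver 5, 11 of 16 macrophage markers passed as lower and 2 as higher, 9 of 11 stellate cell and fibroblast markers and 7 of 8 cholangiocyte markers as lower, and 6 of 10 hepatocyte markers as higher. The summed macrophage markers ran from 2317 to 4513 CPM in WT livers and from 763 to 1078 CPM in KO livers 1 to 4, with 2861 CPM in KO liver 5. In these bulk samples fewer cells of a type and less RNA per cell cannot be told apart.

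For *Dnajb9*, WT livers 1 to 5 on CDA-HFD had 44.0, 46.3, 48.6, 51.2 and 66.8 CPM, and KO livers 1 to 5 had 38.9, 36.4, 29.99, 42.1 and 28.6 CPM. All 5 KO livers were below all 5 WT livers. The log2 fold change was -0.55 (SE 0.14, interval -0.86 to -0.24, edgeR adjusted p = 0.0284), and without KO liver 5 it was -0.48 (adjusted p = 0.0148). Its adjusted p ran from 0.00575 to 0.0885 over 17 alternatives and missed the threshold in 7 of them, among them the fits without WT liver 3 or 5 (0.0591 and 0.0635) and without KO liver 1, 2 or 3 (0.0577, 0.0642 and 0.0803). *Dnajb9* (ENSMUSG00000014905.4) lies on the minus strand at chr12:44205559-44210326 in the GENCODE vM21 annotation of GRCm38.

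*Hyou1* was spread widely among the KO livers on CDA-HFD. WT livers had 190.5, 198, 165, 198 and 204 CPM, and KO livers 1 to 5 had 338, 303, 279.8, 183 and 143 CPM. KO livers 1 to 3 were above every WT liver, KO liver 4 was within the WT range and KO liver 5 below it. With all livers the log2 fold change was 0.38 (SE 0.21, interval -0.09 to 0.85, edgeR adjusted p = 0.222), and without KO liver 5 it was 0.53 and passed (adjusted p = 0.0203), so that 2 of the 10 passed in that fit, where 41.4% of all genes did. *Pdia4* and *Calr* had the same KO livers 1 to 3 above every WT liver. *Pdia4* was at 231, 229.7 and 211 CPM in those 3 and at 173 and 142 CPM in KO livers 4 and 5, against 159 to 193 CPM in WT livers (log2 fold change 0.16, interval -0.15 to 0.47, and without KO liver 5 0.26, interval 0.02 to 0.50, edgeR adjusted p = 0.0808). *Calr* was at 593, 571 and 584 CPM in those 3 and at 343 and 403 CPM in the others, against 375 to 488 CPM in WT livers (0.17, interval -0.20 to 0.54, and 0.24 without KO liver 5). KO liver 4 did not share the raised stellate cell markers of KO liver 5 (1384 CPM), and its hepatocyte markers were the highest of the group (106410 CPM).

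The remaining 6 genes overlapped between KO and WT livers on CDA-HFD, and none passed in either fit. *Hspa5* was at 427, 433, 367, 354 and 275 CPM in KO livers and at 381, 385, 348, 368 and 477 CPM in WT livers (log2 fold change -0.08, interval -0.40 to 0.23, and 0.01 without KO liver 5). *Hsp90b1* ran from 429 to 621 CPM in KO livers and from 495 to 594 CPM in WT livers (0.01, interval -0.26 to 0.28, and 0.09 without KO liver 5). KO liver 5 was the lowest of its group for both chaperones. *Creld2*, with 30.7, 31.8, 22.3, 19.2 and 16.5 CPM in KO livers and 18.2 to 26.1 CPM in WT livers, had a log2 fold change of 0.20 (interval -0.21 to 0.62), and of 0.32 without KO liver 5. Its KO livers 1 and 2 were above every WT liver and KO liver 5 below every one. *Sdf2l1*, a luminal partner of BiP, was most scattered among KO livers, from 10.7 CPM in liver 4 to 27.8 CPM in liver 2, and its log2 fold change was 0.07 (interval -0.42 to 0.57), and 0.15 without KO liver 5. KO livers 1 and 2 were above every WT liver for *Sdf2l1*, and KO livers 4 and 5 below every one. *Manf* was at -0.20 (interval -0.57 to 0.16), and at -0.08 without KO liver 5. *Xbp1* was at -0.05 (interval -0.34 to 0.23), and turned to 0.03 without that liver.

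Whether the KO effect differed between the diets was tested directly as an interaction over the 20 livers, and none of the 10 genes passed (edgeR), beside 99 of 17804 genes (0.556%). At an unadjusted p under 0.05 there were 3 of the 10, *Dnajb9*, *Creld2* and *Manf*, beside 2736 of all genes. The KO effect of *Dnajb9* was lower on CDA-HFD than on WD by 0.81 on the log2 scale as fitted (-0.81, interval -1.48 to -0.13, adjusted p = 0.253). For *Creld2* this difference was -0.72 (interval -1.39 to -0.05, adjusted p = 0.291) and for *Manf* -0.58 (interval -1.15 to -0.00, adjusted p = 0.322). For *Pdia4*, *Hyou1* and *Calr* the fitted difference lay between -0.04 and 0.05, and their intervals ran between -0.59 and 0.51. In none of the 26 alternatives did any of the 10 pass.

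**Figure D2:**
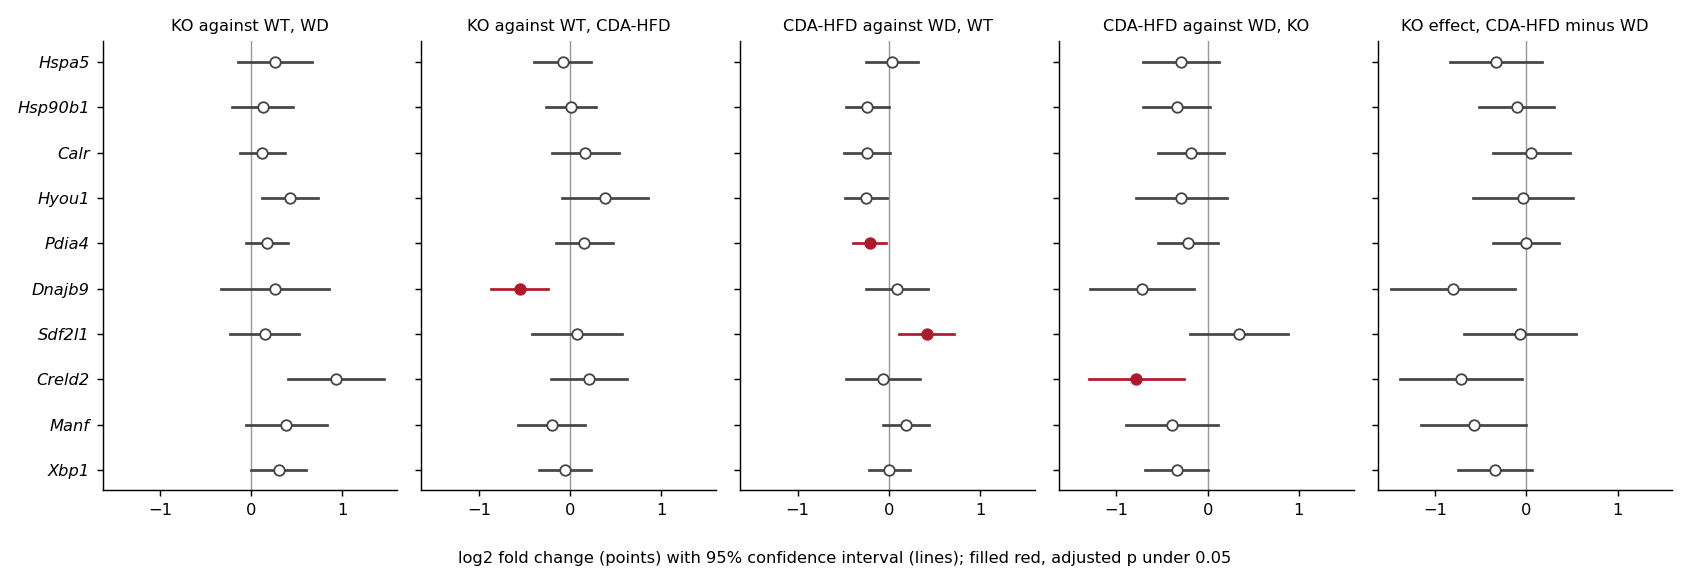
Log2 fold changes of the 10 genes (horizontal axes) with 95% confidence intervals in the 4 comparisons and in the interaction (right panel), with filled red points for an adjusted p under 0.05. All 10 points lie right of 0 for KO against WT on WD, and the points that passed are *Dnajb9* (-0.55), *Pdia4* (-0.21), *Sdf2l1* (0.41) and *Creld2* (-0.78), each in 1 comparison.

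Between the diets in WT livers, *Sdf2l1* rose and *Pdia4* fell on CDA-HFD against WD, 2 of 10, where 8542 of 16726 genes passed (51.1%). The groups of livers overlapped for all 10, whereas 37.1% of all genes had livers on CDA-HFD clear of those on WD. The median log2 fold change was -0.03 over the 10 and -0.00 over all genes. Cell type markers differed between these groups as well, with 10 of 11 stellate cell and fibroblast markers, 8 of 8 cholangiocyte markers and 10 of 16 macrophage markers higher on CDA-HFD and 7 of 10 hepatocyte markers lower, and their part in these values was not tested.

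*Sdf2l1* had 15.7, 12.1, 10.5, 13.7 and 16.1 CPM in WT livers on WD and 22.5, 16.9, 18.3, 18.2 and 15.6 CPM on CDA-HFD. All but liver 5 on CDA-HFD were above every liver on WD (log2 fold change 0.41, SE 0.14, interval 0.12 to 0.71, edgeR adjusted p = 0.0241). The call was lost without WT liver 2 or 3 on WD (0.0592 and 0.0560) or WT liver 1 on CDA-HFD (0.0511), and when all 20 livers shared 1 fit (0.103). *Pdia4* had 199, 184, 217, 206 and 211 CPM on WD and 159, 187, 172, 193 and 172 CPM on CDA-HFD. Livers 1, 3 and 5 on CDA-HFD were below every liver on WD, and the change was small and near the threshold (log2 fold change -0.21, SE 0.08, interval -0.39 to -0.03, adjusted p = 0.0474). It missed the threshold in 11 of 17 alternatives, 7 of which left out 1 liver (WT liver 1, 3, 4 or 5 on WD, or 1, 3 or 5 on CDA-HFD), and its sign turned under scaling by library size alone (0.21, adjusted p = 0.0145), which moved the median of all genes to 0.42. *Hspa5* (0.04, interval -0.25 to 0.32) and *Xbp1* (0.00, interval -0.22 to 0.23) were closest to 0. *Hyou1* (-0.25), *Calr* (-0.24) and *Hsp90b1* (-0.24) lay below 0, with adjusted p from 0.0621 to 0.104. Each of these also turned above 0 under scaling by library size alone (0.18, 0.19 and 0.19).

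In KO livers, *Creld2* fell on CDA-HFD against WD and the other 9 genes did not pass (1 of 10, beside 2792 of 16387 genes or 17%). Here 8 of 16 macrophage, 4 of 11 stellate cell and fibroblast and 5 of 8 cholangiocyte markers were higher on CDA-HFD. Of 10 hepatocyte markers 1 passed as lower and 2 had log2 fold changes above 0, with a median of -0.24. The part of these cell types was not tested. This comparison uses the same KO livers on WD that were set against WT livers above. With 37.9, 25.0, 42.6, 61.1 and 39.4 CPM on WD and 30.7, 31.8, 22.3, 19.2 and 16.5 CPM on CDA-HFD, its livers overlapped at KO liver 2 on WD. The log2 fold change was -0.78 (SE 0.24, interval -1.30 to -0.26, edgeR adjusted p = 0.0438), and the call was lost in 9 of 17 alternatives, among them the fits without KO liver 1, 3, 4 or 5 on WD (0.0640 to 0.100) and without KO liver 3, 4 or 5 on CDA-HFD (0.0676 to 0.0807). *Dnajb9* had the next largest difference, from 32.9 to 100.2 CPM on WD to 28.6 to 42.1 CPM on CDA-HFD (-0.72, interval -1.29 to -0.15, adjusted p = 0.0793). Of the 10 genes 9 had log2 fold changes below 0, *Sdf2l1* (0.35, interval -0.19 to 0.89) being the exception, and the median of the 10 was -0.32, against 0.00 over all genes. Set against WT livers on WD, the log2 mean of the 10 genes was highest in KO liver 4 on WD (0.75) and lowest in KO liver 5 on CDA-HFD (-0.44). The median was not taken without either liver. Under the alternatives, signs turned only for *Pdia4* (0.02) and *Calr* (0.07), with scaling by library size alone. None of the 10 had KO livers on CDA-HFD clear of those on WD, which 15.2% of all genes had.

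Most of the 10 genes varied together from liver to liver within groups. When each liver was set against the mean of its own group, the median Pearson correlation over the 45 pairs of genes was 0.63, and 27 pairs were above 0.5. The points are 20 livers that share library, depth and tissue makeup, so these are descriptions without a test. Pairs of other genes were not examined, so the median and the count of pairs have no background beside them. *Hspa5* and *Manf* were the closest pair (r = 0.93). Against the mean of the other 9, *Hspa5* (0.92), *Manf* (0.91), *Pdia4* (0.88), *Hyou1* (0.88), *Creld2* (0.84) and *Hsp90b1* (0.84) formed the core. *Dnajb9* (0.64), *Calr* (0.62) and *Sdf2l1* (0.44) followed it less closely. *Xbp1* did not (0.02), and its highest correlation with any of the others was 0.26. Without *Xbp1* the median over pairs was 0.73. With all 10 genes the median was 0.57 over the 10 livers on WD and 0.66 over those on CDA-HFD, 0.36 over WT and 0.71 over KO livers, between 0.57 and 0.66 when each liver was left out in turn, and 0.55 with scaling by library size alone.

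The widest departures from a group mean were in KO livers. The mean of the 10 genes was 0.46 above its group mean on the log2 scale in KO liver 4 on WD and 0.36 below it in KO liver 2 of the same group, and in KO liver 5 on CDA-HFD it was 0.42 below (-0.36 and -0.42). WT livers stayed between -0.19 and 0.21. The within-group SD had a median of 0.30 on the log2 scale over the 10 genes, against 0.18 over the 7434 genes at least as abundant as the lowest of them, and ran from 0.20 for *Pdia4* to 0.39 for *Dnajb9* and *Creld2*. The mean of the 10 correlated within groups with the summed markers of hepatocytes at 0.47, of macrophages at -0.59, of stellate cells and fibroblasts at -0.61 and of cholangiocytes at -0.56, with the log2 number of reads at 0.41 and with the share of reads outside counted features at 0.03. The part of tissue makeup and depth in the shared variation was not tested.

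**Figure D3:**
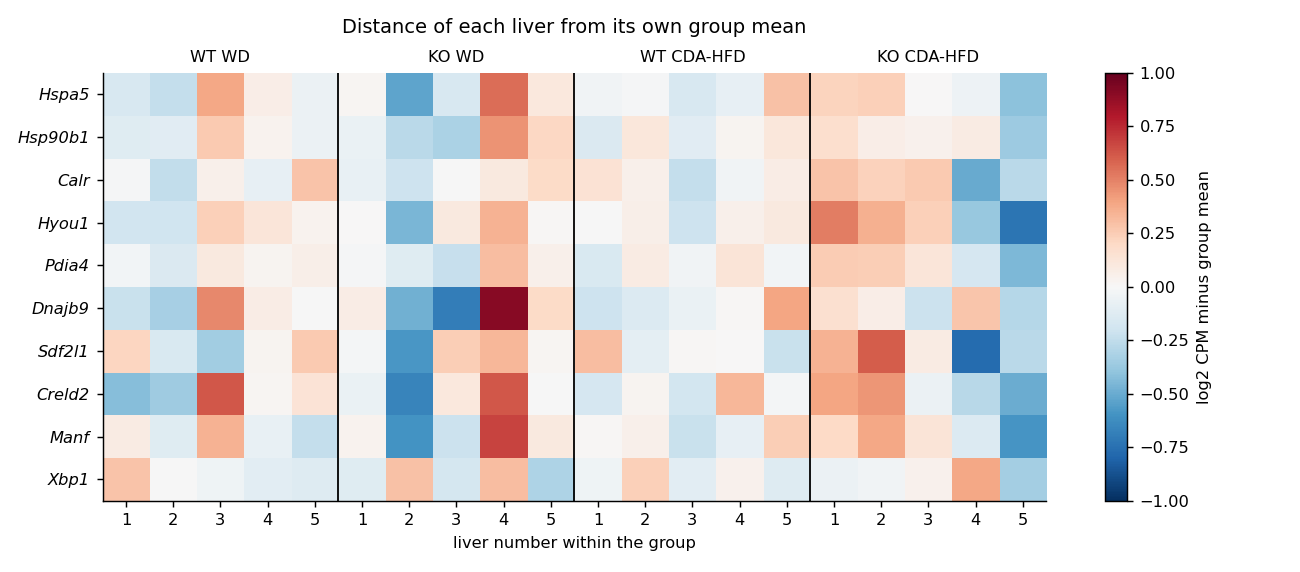
Log2 CPM of the 10 genes (vertical) in each of the 20 livers (horizontal, by group and liver number), as the distance from the mean of the liver's own group (color scale from -1 to 1). KO liver 4 on WD is red for all 10 genes, KO liver 5 on CDA-HFD is blue for all 10, and KO liver 2 on WD is blue for all but *Xbp1*.

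Genes outside the 10 were then ranked by the same within-group correlation with the mean of the 10. Among 10855 genes that reached a mean of 2 on the log2 CPM scale, predicted genes left out, the median was 0.06 and the 99th percentile 0.66. The 10 most alike were *Pdia3* (0.92), *Magt1* (0.87), *Dnajc3* (0.85), *Ero1b* (0.85), *Ttc41* (0.85), *Syvn1* (0.85), *Dnajb11* (0.84), *Sel1l* (0.83), *Srp68* (0.82) and *Alg12* (0.81). All but *Ttc41* belong to the pathway lists used here: *Pdia3* and *Ero1b* form disulfides, *Dnajc3* and *Dnajb11* are J-domain partners of BiP, *Syvn1* and *Sel1l* make up the ubiquitin ligase of ER-associated degradation, *Magt1* and *Alg12* serve glycosylation, and *Srp68* is part of the signal recognition particle.

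By list, likeness was highest for genes of glycosylation and of ER export and low for the sensors. The median r was 0.58 over 20 genes of oligosaccharyl transferase and glycan trimming, 0.57 over 25 genes of COPII and ER to Golgi carriers, 0.51 over 22 of the translocon and signal peptidase, and 0.42 over 29 of ER-associated degradation. It was 0.23 over 26 ER co-chaperones and folding partners and 0.32 over 18 disulfide isomerases and oxidases, lists in which some genes were above 0.8 and others below 0. For 9 UPR sensors and their proteases the median was 0.14. For the 12 of 20 listed genes of the PERK and ATF4 branch that reached a mean of 2 on the log2 CPM scale it was 0.06. This is also near the median of 0.07 over all 11830 genes. *Asns* and *Slc7a11* were among the genes of this branch below that level. None of those 12 was above 0.5, as 8.33% of all genes were. Of the sensors themselves, *Atf6* was at 0.58, *Eif2ak3* (PERK) at 0.14 and *Ern1* (IRE1) at 0.09. Cytosolic chaperones (0.50 over 21 genes) and mitochondrial chaperones and proteases (0.45 over 14) were below the glycosylation, COPII and translocon lists and above the other ER lists.

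**Figure D4:**
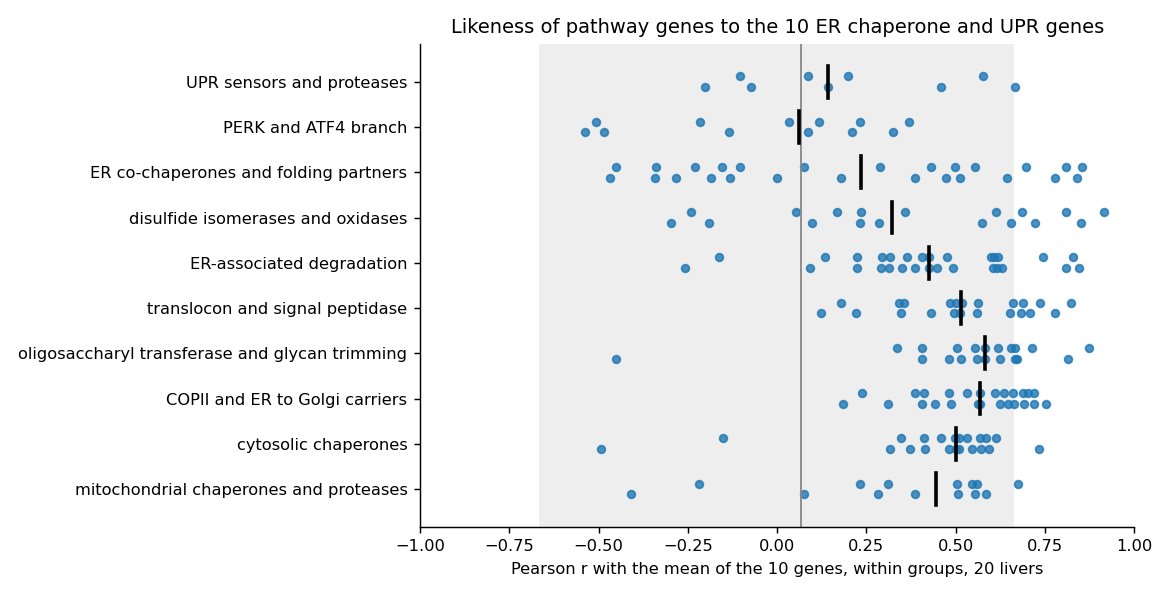
Pearson correlation with the mean of the 10 genes within groups over 20 livers (horizontal axis) for the genes of 10 pathway lists (points), with the list median (black bar), the median of all genes (gray line) and the range between the 1st and 99th percentile of all genes (gray band, -0.67 to 0.66). The PERK and ATF4 branch is centered near the gray line (median 0.06 over the 12 genes shown), and the glycosylation and COPII lists are centered at 0.58 and 0.57.

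The ERSE was carried by 33 genes other than the 10, of which 13 reached a mean of 2 on the log2 CPM scale. Their median r was 0.50, and 7 of the 13 were above 0.5, against 8.34% of 9234 other genes of that level with a promoter entry and a median of 0.07. These 7 were *Dnajc3* (0.85), *Ero1b* (0.85), *Syvn1* (0.85), *Alg12* (0.81), *Canx* (0.78), *Pdia6* (0.57) and *Hnrnpa3* (0.50). All but *Hnrnpa3* also belong to the pathway lists, and 30.8% to 75% of the genes in their lists were above 0.5. The part of the element apart from list membership was not tested. Carriers that belong to none of the lists were also *Gm39859* (0.47), *Pan2* (0.22) and *Acnat2* (0.08). *Acacb* (-0.28), *Spats2l* (-0.21) and *Adcy3* (-0.42), outside the lists too, had correlations below 0. *Canx*, the membrane-bound relative of calreticulin, *Hnrnpa3*, *Gm39859*, *Pan2*, *Acnat2*, *Acacb*, *Spats2l* and *Adcy3* were chosen after their values were seen. Among the 10 genes, *Pdia4* has no ERSE in the window searched and followed the others as closely (0.88) as *Hsp90b1* with its 2 matches (0.84).

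Partners of the 10 genes in the UPR were tested in the same fits. Over all genes 51.1% passed between the diets in WT livers, 17% in KO livers, and 15.5% between KO and WT livers on CDA-HFD. Between the diets, 15.2% of all genes had no overlap in KO livers. *Herpud1*, a membrane component of ER-associated degradation, had the largest change among the 10 partners examined. It was at 264, 280.3, 596, 547 and 470.1 CPM in WT livers on WD and at 132, 238, 206, 283 and 265 CPM on CDA-HFD. The groups overlapped through livers 1 and 2 on WD and livers 4 and 5 on CDA-HFD, and *Herpud1* fell with a log2 fold change of -0.95 (SE 0.26, edgeR adjusted p = 0.00998). In KO livers it fell as well, from 327 to 652 CPM on WD to 169 to 304 CPM on CDA-HFD with no overlap (-0.90, SE 0.23, adjusted p = 0.0216). *Atf6* (-0.41, adjusted p = 0.00153) and *Dnajc3* (-0.34, adjusted p = 0.0143) fell on CDA-HFD in WT livers, and *Atf4* (0.42, adjusted p = 0.00392) and *Ddit3*, which encodes CHOP (0.40, adjusted p = 0.0273), rose. Between KO and WT livers on CDA-HFD, *Eif2ak3* fell (-0.44, SE 0.12, adjusted p = 0.0383), with 26.3 to 34.7 CPM in KO livers and 34.6 to 52.4 CPM in WT livers, which touched at KO liver 5. Without that liver *Ern1* (0.33, adjusted p = 0.0385) and *Dnajc3* (0.35, adjusted p = 0.0160) passed as higher too, and *Eif2ak3* was at -0.50. Over all genes 41.4% passed in that fit. On WD none of the 10 partners passed between KO and WT livers, where 0.0757% of all genes did. KO livers on WD lay clear of WT livers for 2.22% of all genes. *Ddit3* had all 5 KO livers (9.88 to 12.1 CPM) above all 5 WT livers (7.68 to 9.42 CPM), with an adjusted p of 0.316. *Ern1* had the largest log2 fold change of the partners there (0.41, edgeR unadjusted p = 0.00134, adjusted p = 0.202), with overlapping livers.

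The wider lists were counted in the same fits, beside 4335 higher and 4207 lower of 16726 genes (51.1%) between the diets in WT livers. Of the 7434 genes at least as abundant as the lowest of the 10, 1346 were higher and 2833 lower. Their median log2 fold change was -0.12. Of 20 genes of the PERK and ATF4 branch, 11 rose and 5 fell on CDA-HFD, with a median log2 fold change of 0.69 against -0.00 over all genes. The activity of PERK was not measured, its gene *Eif2ak3* was at 0.05 (edgeR adjusted p = 0.777), and the cause of these changes was not tested. *Asns*, asparagine synthetase, rose from a mean of 0.839 to 20.2 CPM (log2 fold change 4.56) and *Slc7a11*, the cystine transporter, from 1.30 to 14.6 CPM (3.44), while *Vldlr* fell from 16.1 to 4.88 CPM (-1.72). Of 30 genes of ER-associated degradation 1 rose (*Edem2*, 0.56) and 12 fell, among them *Derl2* (-0.68) and *Vcp* (-0.54), with a median of -0.17. Of 26 COPII and ER to Golgi genes 2 rose and 12 fell, led by *Sar1b*, the small GTPase that starts the coat (-1.23), *Bet1* (-0.99) and *Sec24a* (-0.89), with a median of -0.22. Of 14 mitochondrial chaperones and proteases none rose and 11 fell, among them *Grpel2* (-0.93), *Spg7* (-0.77) and *Trap1* (-0.74). ER co-chaperones and folding partners went both ways (10 higher and 6 lower of 27), with the collagen chaperone *Serpinh1* (1.51) and *Dnajc10* (0.86) rising and *Creld1*, the relative of *Creld2*, falling (-0.89). The disulfide list had 3 higher and 5 lower of 18, with *Tmx3* (0.74), *Prdx4* (0.54) and *Tmx2* (-0.63), and the translocon list 6 higher and 2 lower of 23, with *Spcs1* (0.36), *Ssr4* (0.35) and *Srpr* (-0.34). Of 20 glycosylation genes 5 were higher and 4 lower, with *Ganab* (-0.46), *Rpn1* (0.38) and *Pgm3* (-0.43), and of 22 cytosolic chaperones 2 were higher and 6 lower, with *Hspa1a* (1.79), *Cryab* (1.20) and *Hspb8* (-0.99). Of 9 sensors and proteases 2 were higher and 4 lower, with *Nfe2l1* (-0.48) and *Mbtps2* (0.36) beside *Atf6*.

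In KO livers the lists had the following calls between the diets, beside 2792 of 16387 genes (17%), and the difference from WT livers was not tested over lists. The PERK and ATF4 branch had 5 higher and 3 lower of 19, again with *Asns* (4.80), *Slc7a11* (3.66) and *Vldlr* (-2.56). ER-associated degradation had 1 higher and 4 lower of 30, with *Edem1* (-0.69), *Derl2* (-0.52) and *Herpud1*, and the COPII list 3 lower of 26, with *Sar1b* (-0.77), *Bet1* (-0.76) and *Tmed2* (-0.43). Of the co-chaperones 5 of 27 were higher, with *Dnajc10* (0.59), *Fkbp11* (1.18) and *Serpinh1* (1.12), and 2 were lower. Mitochondrial chaperones had 3 lower of 14 (*Grpel2* -0.74, *Clpx* -0.37 and *Trap1* -0.40), while *Prdx4* (0.45) and *Hspa1a* (1.56) were the single members of their lists to pass, and the sensor, translocon and glycosylation lists had none by edgeR, with 1 of 9, 3 of 23 and 3 of 20 at an unadjusted p under 0.05, beside 5452 of all genes.

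Between KO and WT livers on CDA-HFD more genes passed without KO liver 5 in the lists and over all genes, where 15.5% passed with all livers and 41.4% without it. With all livers, 1016 of the 7434 genes at least as abundant as the lowest of the 10 were higher and 495 lower, with a median of 0.09. *Atf3* (-1.72) and *Slc7a11* (-1.97) of the PERK and ATF4 branch were lower in KO livers and *Ppp1r15b* (0.43) higher, and the list had a median of -0.50. Without KO liver 5 that list had 1 higher and 7 lower of 20, with a median of -0.64. ER-associated degradation had 2 of 30 higher, among them *Os9* (0.47), and 10 without KO liver 5, none lower in either fit. Mitochondrial chaperones had 3 of 14 higher (*Spg7*, 0.46, *Dnaja3*, 0.48, and *Clpx*, 0.37) and 10 without that liver, and cytosolic chaperones 2 of 22 higher (*Hspb8*, 0.68, and *Fkbp4*, 0.71), then 9 higher and 1 lower. Among sensors *Creb3l3*, a liver-specific relative of ATF6 (0.75), and *Nfe2l1* (0.44) were higher beside the lower *Eif2ak3*, 3 of 9 in all, and 6 of 9 passed without KO liver 5. Of the co-chaperones 3 were higher and 3 lower of 27, with *Creld1* (0.66), *Dnajc10* (-0.53) and *Uggt2* (-0.64), and 4 and 8 without that liver. The COPII list had 3 higher and 1 lower of 26, with *Sec16b* (0.71), *Sar1b* (0.50) and *Kdelr3* (-1.51), and then 6 and 2. In the translocon list *Spcs1* (-0.37) and *Srp14* (-0.28) were lower of 23, and without KO liver 5 there were 1 higher and 3 lower. In the glycosylation list *Ganab* was higher (0.36) and *Ostc* lower (-0.49) of 20, and then 4 and 2. None of 18 disulfide genes passed with all livers by edgeR (3 at an unadjusted p under 0.05), against 4 without KO liver 5. On WD a single gene of all the lists passed between KO and WT livers, *Pgm3*, which makes a sugar nucleotide for glycosylation (32.2 CPM in KO against 57.2 CPM in WT livers, log2 fold change -0.83, adjusted p = 0.0281), and in the interaction a single one, *Hspb8* (0.97).

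**Figure D5:**
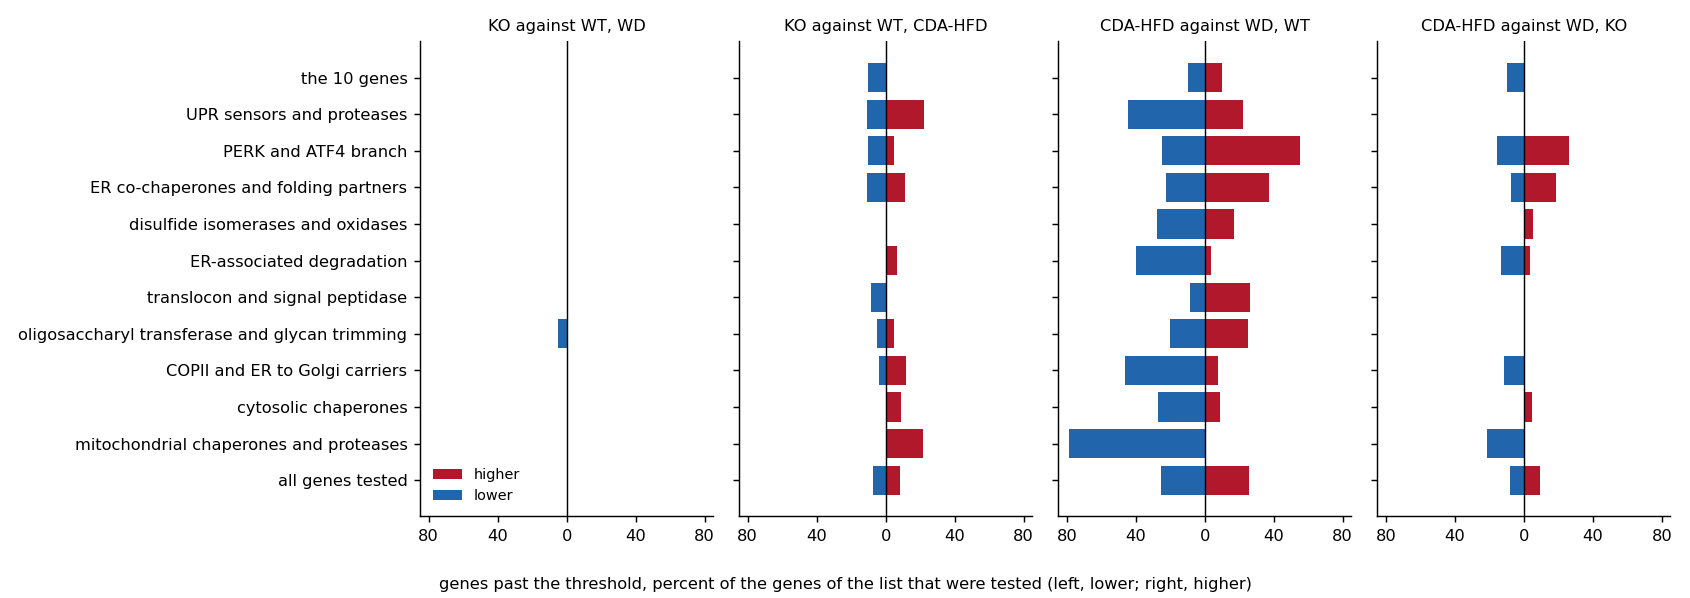
Genes that passed the test as a percent of the tested genes of each list (horizontal axis, lower to the left in blue and higher to the right in red), for the 10 genes, 10 pathway lists and all genes tested, in 4 comparisons. Of the 10 genes, 1 is lower in KO against WT on CDA-HFD, 1 is lower between the diets in KO livers, and 1 lies to each side between the diets in WT livers, where the mitochondrial list (11 of 14 lower) and the PERK and ATF4 branch (11 of 20 higher) reach farthest.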

How the data were processed

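RNA was sequenced from 20 mouse liver samples, 5 in each of 4 groups of AAV and diet, and groups were taken from the labels. The authors deposited raw read counts per gene in 1 table, and the submitters' processing notes name the build mm10. The aligner and the counter are not given in the sources used here. The labels and the study's methods name different library kits, so whether counting used strand is not known, and reads of overlapping antisense genes cannot be told apart. The 5 entries of unassigned reads were left out of library sizes and tests. In them, 20.7% to 28.8% of reads lay in no feature, 0.8% to 1.03% were ambiguous and 18% to 28.7% were not unique.

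Counts were tested with edgeR 4.0.16 in R 4.3.3 (quasi-likelihood test, TMM scaling, filterByExpr) within the groups compared, with Benjamini-Hochberg adjustment over all genes tested and a threshold of 0.05. The interaction was fitted over all 20 livers. Log2 CPM used a prior count of 2. Levels between genes were divided by exon length (GENCODE vM21). Alternatives were DESeq2 1.42.0, other scalings and filters, a replicate block, a shared fit and leaving out each liver. The test script was checked on simulated data. Between 11697049 and 16827147 reads per liver lay on genes. The genes, the lists and the alternatives were chosen with earlier results of these data known. The text names all 10 genes, 10 fixed partners, up to 3 genes that passed with the smallest adjusted p per list and comparison, and the 10 genes most alike within groups. A gene that this rule would name is not reported here.

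Correlations of the deviations of same-numbered livers ran from -0.37 to 0.35 over the 4 comparisons, with 5 pairs in each. Without values for differently numbered livers, this range cannot decide whether shared replicate numbers pair the livers.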

Additional observations from a re-analysis of the deposited data

Results flagged for a closer look

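In 3 of the 40 groups of 5 livers examined (10 genes in 4 groups), 1 liver lay far from the other 4, by the gap to its nearest neighbor as a share of the whole range. Chance gives about 1 in 20 such groups. *Hspa5* was at 477 CPM in WT liver 5 on CDA-HFD, against 348 to 385 CPM in the others (share 0.713). *Hsp90b1* was at 429 CPM in KO liver 5 on CDA-HFD, against 568 to 621 CPM (share 0.727), in the liver whose cell markers also stood apart. *Xbp1* was at 183 CPM in WT liver 1 on WD, against 137 to 149.7 CPM (share 0.722).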

How the results depend on the processing

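The number of the 10 genes that passed changed as follows, and the cause was not tested. Between KO and WT livers on WD it was 0, and 1 by DESeq2. On CDA-HFD it was 1, then 0 with the replicate block, 0 in the fit shared by all 20 livers, and 0 to 2 when each liver was left out in turn. Between the diets in WT livers it was 2, then 7 with scaling by library size alone, 4 by DESeq2, 1 without a filter on low counts, 1 with at least 10 counts in every library, 1 with the replicate block, 0 in the shared fit, and 0 to 2 with single livers left out. In KO livers it was 1, then 0 with scaling by library size alone, 2 by DESeq2, 0 with the block, 2 in the shared fit, and 0 to 1 with single livers left out. The interaction gave 0 under all 26 alternatives. Of 940 single fold changes under the alternatives, 55 changed sign for a gene that passed in neither fit, all between -0.20 and 0.19 on the log2 scale.

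Scaling by library size alone turned *Pdia4* (0.21) and *Creld2* (0.37) above 0 between the diets in WT livers, where both passed. It also turned *Hsp90b1* (0.19), *Hyou1* (0.18) and *Calr* (0.19) above 0, and none of these passed. It moved the median log2 fold change of all genes there to 0.42 and the share of calls that were higher from 50.7% to 85.3%. In KO livers the median moved to 0.25 and the share from 53.9% to 85.9%, and between KO and WT livers on CDA-HFD to -0.19 and from 52.9% to 30.3%. Over all genes on WD, 2 were higher and 10 lower, against 64 and 100 by DESeq2 and 0 and 2 with the replicate block. For the interaction these counts were 59 and 40, against 280 and 154 by DESeq2 and 2 and 6 with the block. The block removes degrees of freedom, and its lost calls are not read as weaker effects. Whether the replicate numbers pair the livers was not tested, nor was the cause of the lost calls.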
